A study of Mus musculus with 30 samples.

Results

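The AP-1 genes described here were Fos, Fosb, Fosl1, Fosl2, Jun, Junb, Jund, Atf3, Batf and Maff. These 10 genes were taken by name, with earlier results of these data known. Their chromatin was followed through ATAC-seq, in which a transposase cuts accessible DNA, as read counts in fixed windows of the mouse genome (GRCm38, also called mm10). A window was counted for a gene when the nearest protein-coding transcription start site (TSS) within 50 kb belonged to it, which gave 169 of 305931 windows in the 24 h table and 186 of 369846 windows in the 4 h table. By gene the 2 tables held 50 and 44 windows of Atf3, 24 and 41 of Jun, 23 and 30 of Fos, 24 and 19 of Fosl2, 11 and 12 of Batf, 9 and 12 of Fosb, 10 and 8 of Maff, 7 and 7 of Junb, 6 and 7 of Fosl1, and 5 and 6 of Jund. Windows carry the distance of their centre from the nearest annotated TSS of the gene, negative when upstream. Atf3 lies on the minus strand and has a proximal TSS at position 191183340 and a distal one at 191218039 of chromosome 1, so its upstream windows are counted from the distal one.

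AP-1 is a dimer of basic leucine zipper proteins. A Jun protein (Jun, Junb or Jund) pairs with another Jun, with a Fos protein (Fos, Fosb, Fosl1 or Fosl2) or with an ATF or Maf relative, and the dimer binds the phorbol ester response element (TRE) or, for ATF partners, the cyclic AMP response element (CRE). Fos, Fosb, Jun, Junb and Atf3 are immediate early genes, switched on within minutes by serum, stress and mechanical signals through MAP kinases and serum response factor, the latter being linked to actin through MRTF cofactors that monomeric actin holds back. Fosl1 and Fosl2 follow later, Jund is made steadily in most cells, Atf3 is a stress-induced factor that often represses, Batf is a partner of Jun proteins best known in lymphocytes, and Maff is a small Maf protein without an activation domain. In marrow stromal cells AP-1 proteins act in growth and bone formation.

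Mesenchymal stem cells (MSCs) had been harvested from the marrow of several C57BL/6J mice, labelled male, with no age given, and NIH3T3 is a fibroblast line from mouse embryos, obtained from ATCC, whose samples carry the same strain and sex labels although the line is known to come from Swiss mice. CK666 inhibits the Arp2/3 complex, which makes branched actin, and cytochalasin D (CytoD) caps actin filaments and brings actin into the nucleus. There were 7 groups of 3 libraries, namely MSCs after 24 h as untreated control, with CK666 or with CytoD, and MSCs and NIH3T3 cells after 4 h as untreated control or with CK666. No group carried a genetic change, and the doses of the sequenced cultures were not taken from the labels, which do not give them. Nothing in the labels says that replicates were separate cultures, so p-values measure the spread between these samples, which may be technical.

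Library totals of counts in windows at 24 h were 14122298 to 22352180 in controls, 19536094 to 21259528 with CK666 and 14071301 to 19457534 with CytoD. In MSCs at 4 h they were 29239381 to 30017192 in controls and 31634170 to 34979833 with CK666. In NIH3T3 cells they were 24368857 to 27866363 in controls and 14496058 to 23146416 with CK666, lowest in replicate 1. At 4 h every CK666 library was thus deeper than every control in MSCs and shallower in NIH3T3 cells. Whether this difference in depth affected the 4 h comparisons or their interaction was not tested. At these totals a count near 20, as at several windows below, has a wide counting error, which is part of the spread between replicates. Levels are normalized counts, that is reads divided by the effective size of the library and brought to the mean size of the libraries fitted together, so they compare libraries of 1 fit and not the 24 h with the 4 h table. The marrow stromal and fibroblast labels were checked on promoter windows. At 24 h 4 of 8 stromal marker genes and 4 of 5 fibroblast marker genes had such a window, with control medians of 213.9 and 239.6 normalized counts per kb. The blood cell markers Ptprc, Spi1, Itgam and Cd3e had no window over the TSS in either table, and of 4 endothelial markers 2 had one at 24 h, with a control median of 44.6 per kb. At 4 h the 3 endothelial markers with such a window had medians of 78.4 per kb in control MSCs and 45.1 in control NIH3T3 cells, the 5 fibroblast markers 624.8 and 484.6, and the 5 stromal markers 207.7 and 107.8. Lepr and Thy1 had no promoter window at 24 h, and the Thy1 window at 4 h held 1.29 normalized counts per kb in control MSCs against 134.1 in control NIH3T3 cells. The stromal markers Eng, Nt5e and Ly6a had no promoter window in either table. At 4 h Lepr, Col1a1, Col1a2 and Thy1 were higher in control NIH3T3 cells, and Pdgfra, Pdgfrb, Cxcl12, Runx2, Vim and Fn1 in control MSCs. Lepr held 9.97 per kb in control MSCs against 29.2, and Col1a1 76.4 against 130.2. The endothelial Kdr window held 109.5 in control MSCs.

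The windows on which the results turned most were distal, not at the TSS. At 24 h, 90 of the 169 windows had their centre between genes, 40 in an intron of a coding gene and 25 in an intron of a non-coding gene. The middle 300 bases of 6 of these windows are shown in GRCm38, plus strand, because 5 of them were called higher with CK666, 4 of these in both cell types, and the Fosb window fell in MSCs but not in NIH3T3 cells. Capitals mark a TRE, spelled TGACTCA or TGAGTCA and read on both strands, which are each other's reverse complement. None of the 6 stretches overlaps an annotated exon.
Atf3 -30.6 kb, chr1:191248464-191248763: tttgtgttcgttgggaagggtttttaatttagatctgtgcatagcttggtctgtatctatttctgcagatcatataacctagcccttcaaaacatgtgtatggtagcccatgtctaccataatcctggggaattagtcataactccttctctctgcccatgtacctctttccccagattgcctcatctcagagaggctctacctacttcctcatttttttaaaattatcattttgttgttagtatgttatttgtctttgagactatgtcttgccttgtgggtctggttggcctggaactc
Atf3 -26.0 kb, chr1:191243856-191244155: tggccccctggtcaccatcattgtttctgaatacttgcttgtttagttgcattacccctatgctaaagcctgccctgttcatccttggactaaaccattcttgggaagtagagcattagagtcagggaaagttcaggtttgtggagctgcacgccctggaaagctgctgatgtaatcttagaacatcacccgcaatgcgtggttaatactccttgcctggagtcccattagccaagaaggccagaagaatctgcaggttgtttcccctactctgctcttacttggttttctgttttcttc
Atf3 -21.8 kb, chr1:191239645-191239944: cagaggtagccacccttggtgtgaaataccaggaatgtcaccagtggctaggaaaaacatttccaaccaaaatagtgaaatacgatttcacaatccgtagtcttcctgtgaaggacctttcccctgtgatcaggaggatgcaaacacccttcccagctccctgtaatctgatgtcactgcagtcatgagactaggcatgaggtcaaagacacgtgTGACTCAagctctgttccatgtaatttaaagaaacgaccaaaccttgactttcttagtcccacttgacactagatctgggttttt
Fos -37.4 kb, chr12:85436270-85436569: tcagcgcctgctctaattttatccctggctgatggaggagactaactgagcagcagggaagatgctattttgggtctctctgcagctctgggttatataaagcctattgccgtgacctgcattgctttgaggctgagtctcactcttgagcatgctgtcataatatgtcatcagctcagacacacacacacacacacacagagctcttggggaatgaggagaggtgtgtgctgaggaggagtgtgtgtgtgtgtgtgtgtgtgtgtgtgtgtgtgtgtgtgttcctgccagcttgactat
Fos -5.0 kb, chr12:85468720-85469019: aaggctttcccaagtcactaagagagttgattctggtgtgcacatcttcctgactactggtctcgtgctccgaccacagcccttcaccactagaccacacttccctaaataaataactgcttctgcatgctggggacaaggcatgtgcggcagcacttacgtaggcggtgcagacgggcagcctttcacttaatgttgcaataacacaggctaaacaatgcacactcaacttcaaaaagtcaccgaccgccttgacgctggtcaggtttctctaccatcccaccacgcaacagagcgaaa
Fosb -6.9 kb, chr7:19316835-19317134: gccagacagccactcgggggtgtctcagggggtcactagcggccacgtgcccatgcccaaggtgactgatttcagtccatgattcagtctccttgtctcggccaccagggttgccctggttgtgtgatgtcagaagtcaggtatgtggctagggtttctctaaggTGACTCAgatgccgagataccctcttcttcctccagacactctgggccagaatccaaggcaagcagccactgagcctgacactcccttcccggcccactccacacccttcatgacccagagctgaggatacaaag

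A TRE stood in the stretches at Atf3 -21.8 kb (191239860 to 191239866) and Fosb -6.9 kb (19317000 to 19317006), and in none of the other 4, which also held no CRE (TGACGTCA) and no CArG box, the serum response factor motif. Over the central 500 bases, 37 of 169 AP-1 family windows of the 24 h table held a TRE (21.9%) against 20.2% of all windows, and 44 of 186 at 4 h (23.7%) against 26.1%. Shares of all windows with a CRE were 0.514% and 0.584%, and with a CArG box 2.62% and 2.71%. The AP-1 genes' own called gains with CK666 at 24 h held a TRE in 1 of 7, where 21.98% of all windows called higher did. Among all windows called lower, 32.0% held a TRE with CK666 at 24 h, 46.6% with CytoD, 24.6% with CK666 in MSCs at 4 h and 51.5% with CK666 in NIH3T3 cells, against 20.3%, 20.3%, 26.7% and 27.0% of all windows tested there. A match is a run of letters, and it does not show that a factor was bound.

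Without treatment the promoter of Jun was the most open of the family. Per kb of window and on the scale of each fit, the window over the Jun TSS held 1667 ± 156 normalized counts in MSCs at 24 h (SD, n = 3), followed by Atf3 with 507.8 ± 44.2 and Fosl2 with 390.1 ± 48.8. Maff with 202.2 ± 11.9, Jund with 187.5 ± 11.2 and Fos with 176.5 ± 4.6 came next, and neighbours in this order overlapped within 1 SD. Fosb with 137.5 ± 25.7 (its window at -0.2 kb), Junb with 127.5 ± 21.9 and Fosl1 with 118.9 ± 0.22 overlapped within 1 SD too, and Batf was lowest with 16.5 ± 10.6. The order at 4 h again had Jun, Atf3 and Fosl2 on top in both cell types, with 2851 ± 142, 1062 ± 26 and 717.0 ± 94.5 in MSCs and 3795 ± 584, 569.0 ± 21.4 and 541.6 ± 14.3 in NIH3T3 cells, where Atf3 and Fosl2 overlapped within 1 SD. Batf had no window over its TSS in the 4 h table. Lower down the order changed. In MSCs at 4 h Jund with 603.6 ± 51.2 and Junb with 531.5 ± 28.7 stood above Fos with 305.7 ± 24.0. Window borders differ between the genes and between the tables, and a level per kb depends on them. The Junb TSS window ran from 84977064 to 84979080 at 24 h and from 84978518 to 84979067 at 4 h. That of Jund ran from 70698210 to 70700363 and from 70698223 to 70699152. The cause of the change was not tested.

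With CK666 for 24 h, distal windows of Atf3, Fos and Fosb gained reads in MSCs. A window was called at an adjusted p under 0.01 by the quasi-likelihood test of edgeR, adjusted by the Benjamini-Hochberg method over every window of the table, and a log2 fold change beyond 1. Of 168 windows tested, 7 were called higher (4 of Atf3, 2 of Fos, 1 of Fosb) and 0 lower, with 1.88% of all windows called higher and 1.05% lower in this comparison. For the loss of 0, 1 window was below an unadjusted p of 0.05 and past the fold limit, and DESeq2 called 0. By adjusted p alone 11 windows rose and 2 fell, against 3.02% and 2.9% of all windows. The median log2 fold change of the 168 was 0.12 against 0.02 over all windows. Called windows are named below by a rule that asks for groups that do not overlap and for a mean of 20 normalized counts, which some reach through the treated libraries alone, so that the groups of a window named by the rule are apart is a description and adds nothing to its test.

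At Atf3, a stress-induced repressor, the window 30.6 kb upstream (chr1:191248351-191248873) held 63.6, 65.2 and 88.8 normalized counts with CK666 and 12.98, 9.38 and 17.9 in the controls. The log2 fold change was 2.42 ± 0.33 (SE; edgeR adjusted p = 1.13e-08). At -25.6 kb (chr1:191243014-191244253), the CK666 libraries held 88.9, 100 and 110.5 and the controls 20.8, 29.0 and 25.0, a change of 1.98 ± 0.25 (edgeR adjusted p = 2.11e-09). Another gain was in an intron, 1.7 kb downstream of the proximal TSS (chr1:191181307-191181897), with 54.3, 61.7 and 54.3 against 9.09, 8.53 and 11.6. The change of 2.52 ± 0.36 was the greatest of the 50 Atf3 windows (edgeR adjusted p = 6.42e-08). A smaller one stood at -33.6 kb, 1.55 ± 0.39 (edgeR adjusted p = 0.00319), and the windows at -36.6 and -40.5 kb rose by 0.52 and 0.66. By contrast the window over the proximal TSS held 647.2 ± 39.5 normalized counts with CK666 and 607.9 ± 52.8 in controls (SD, n = 3), which did not pass (edgeR adjusted p = 0.633). The windows at -25.6 and -33.6 kb and those that rose by less than the fold limit are outside the naming rule and were chosen after their values were seen.

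At Fos, the founding partner of Jun, both gains were upstream. The window at -37.4 kb (chr12:85436136-85436774) held 41.2, 41.7 and 32.6 normalized counts with CK666 against 7.79, 10.2 and 8.03 in the controls, a log2 fold change of 2.12 ± 0.38 (edgeR adjusted p = 1.93e-05). Nearer the gene, at -5.0 kb (chr12:85468545-85469169), the counts were 63.6, 44.4 and 75.0 against 19.5, 34.1 and 33.0. Here the lowest treated library was close to the highest control, and the change of 1.04 ± 0.28 (edgeR adjusted p = 0.00784) was no longer called in 7 of 15 alternatives, among them DESeq2 and the fits without control replicate 1, 2 or 3. A window 24.0 kb downstream of the Fos TSS fell, from 333.6, 438.3 and 421.3 to 248.9, 267.8 and 271.3, by 0.61 ± 0.11 on the log2 scale (edgeR adjusted p = 1.74e-05), and was chosen after its values were seen. The Fos promoter window was level, at 285.2 ± 14.4 with CK666 and 279.8 ± 7.3 in controls (edgeR adjusted p = 0.925).

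Fosb, the close relative of Fos, had 1 gain at -4.0 kb (chr7:19313728-19314395), where 27.1, 35.6 and 24.7 normalized counts stood against 6.49, 12.8 and 3.57 (log2 fold change 1.90 ± 0.48, edgeR adjusted p = 0.00339). The groups did not overlap, and the mean over all libraries was below the 20 counts that the naming rule asks for, so this window was chosen after its values were seen. Jun had no called window, but the one over its coding exon at +1.5 kb (chr4:95050462-95051018) rose from 123.3, 126.2 and 132.1 to 256.4, 200.9 and 267.3, a change of 0.92 ± 0.14, just short of the fold limit (edgeR adjusted p = 1.84e-07). At -46.3 kb, in an intron of the non-coding gene Junos, a Jun window fell by 0.66 ± 0.10 (edgeR adjusted p = 2.09e-07). For Batf, the intronic window at +18.6 kb rose from 154.5, 160.3 and 178.5 to 254.5, 222.6 and 247.6, by 0.55 ± 0.13 (edgeR adjusted p = 0.00128). Of Fosl1, Fosl2, Junb, Jund and Maff 0 windows passed the adjusted p alone by edgeR or by DESeq2, with 2 higher and 9 lower of them at an unadjusted p under 0.05. These 3 windows of Jun and Batf, too, were chosen after their values were seen.

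**Figure D1:**
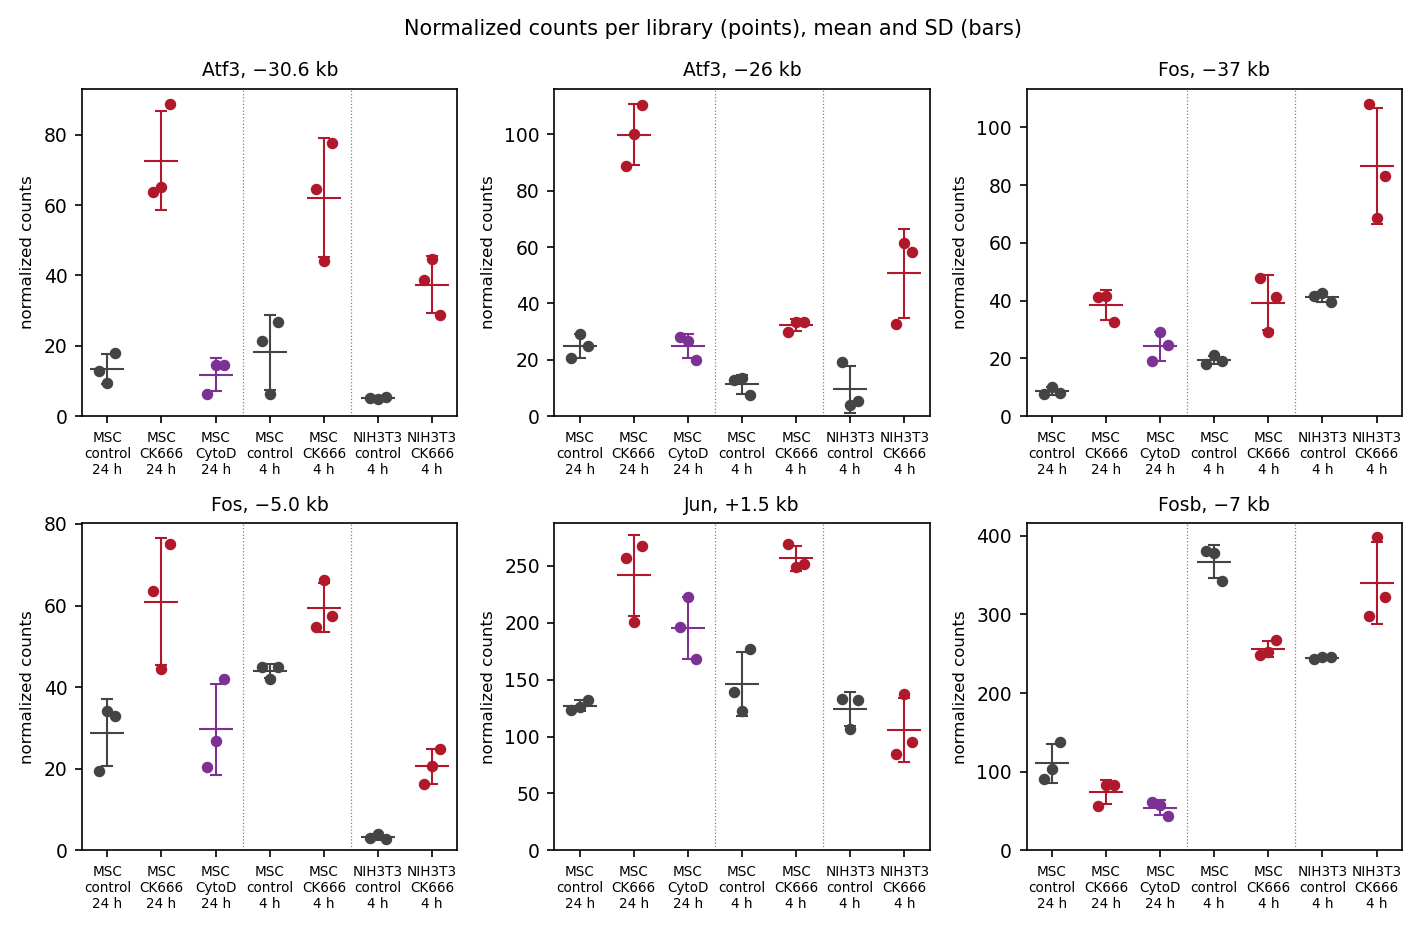
Normalized counts (y axis) in the 3 libraries of each of the 7 groups (x axis) for 6 windows of Atf3, Fos, Jun and Fosb, with points for libraries and bars for the mean ± SD. Dotted lines part sets fitted on their own scale. The 3 CK666 libraries at Atf3 -30.6 kb lie above their controls in MSCs at 24 h, MSCs at 4 h and NIH3T3 cells, while CytoD lies at the control level.

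Summed over all windows of a gene, the loci of Atf3 and Batf rose with CK666 at 24 h, 2 of 10 genes against 7.17% of all genes. Atf3 went from 3431, 3841 and 3853 to 4323, 4406 and 4697 normalized counts, a log2 fold change of 0.27 ± 0.05 (edgeR adjusted p over all genes = 5.36e-06). Batf went from 310.2, 310.4 and 321.3 to 475.4, 430.4 and 474.5, by 0.55 ± 0.10 (edgeR adjusted p = 1.57e-05). At both genes the CK666 libraries lay above all controls. Atf3 did not pass with windows within 20 kb (edgeR adjusted p = 0.0578), 1 of 16 alternatives, and Batf passed in all 16. No locus fell, against 5.24% of all genes, with 3 at an unadjusted p under 0.05 and 1 by DESeq2. The median of the 10 loci was -0.03 and that of all genes 0.04.

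CytoD for 24 h changed few of these windows, and the Atf3 gains were not among them. Of 168 windows 1 was called higher (Fos -37.4 kb) and 1 lower (Fosb -6.7 kb), with 0.98% and 1.4% of all windows called. On the adjusted p alone, 3 windows rose and 5 fell, against 1.7% and 3.99% of all windows. The control libraries are the same as for CK666, so the 2 comparisons are set side by side only. The window at Atf3 -30.6 kb held 6.36, 14.6 and 14.6 normalized counts with CytoD, within the range from 9.38 to 17.9 of the controls but for 1 library below it (log2 fold change -0.15, edgeR adjusted p = 0.873). At -25.6 kb the CytoD libraries held 28.0, 26.7 and 20.1, which overlap the controls (-0.04, edgeR adjusted p = 0.958). At +1.7 kb they held 13.99, 34.0 and 13.7, with a change of 1.04 that did not pass (edgeR adjusted p = 0.0917). Of Atf3, 1 window passed, at -4.1 kb, which fell by 0.64 ± 0.12 (edgeR adjusted p = 8.92e-05) and was chosen after its values were seen. At an unadjusted p under 0.05 edgeR had 10 of the 50 Atf3 windows higher and 2 lower. The window over the distal TSS held 25.4, 18.2 and 23.8 with CytoD against 6.49, 5.12 and 11.6 in controls. It did not pass, and it was also chosen after its values were seen.

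The Fos window at -37.4 kb did rise with CytoD, to 19.1, 29.1 and 24.7 normalized counts from 7.79, 10.2 and 8.03, by 1.46 ± 0.41 (edgeR adjusted p = 0.00978). The groups were apart, but the adjusted p lay just under the limit, and DESeq2 called 0 gains. The window of Fosb at -6.7 kb (chr7:19316245-19317334), which holds 2 TRE matches in its central 500 bases, went from 90.9, 103.2 and 138.3 to 61.0, 58.3 and 43.9. That is a fall of 1.05 ± 0.21 on the log2 scale (edgeR adjusted p = 0.000131), and it was no longer called without control replicate 3 (to which the highest control value belongs) or CytoD replicate 3, nor with scaling by total counts. With CK666 the same window had a change of -0.59 that did not pass (edgeR adjusted p = 0.04). Jun +1.5 kb rose to 195.9, 222.1 and 168.2 (0.61 ± 0.14, edgeR adjusted p = 0.00128) and Jun -46.3 kb fell by 0.74 ± 0.10 (edgeR adjusted p = 1.93e-08). A Jun window at -30.4 kb rose from 37.6, 60.5 and 49.1 to 82.7, 110.5 and 85.9 (0.89 ± 0.23, edgeR adjusted p = 0.00368). Windows that fell were Fosl1 -2.7 kb, by 0.69 ± 0.16 (edgeR adjusted p = 0.00112), and Fos +24.0 kb, by 0.57 ± 0.11 (edgeR adjusted p = 9.47e-05). The Jun, Fosl1 and Fos +24.0 kb windows were chosen after their values were seen.

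Of the loci, 2 fell with CytoD and 0 rose, where 12.6% of all genes fell and 4.56% rose. For the 0, edgeR gave 0 at an unadjusted p under 0.05 and DESeq2 gave 0. Fosl1 went from 386.8, 405.0 and 444.5 to 267.1, 304.7 and 303.5 normalized counts, a fall of 0.50 ± 0.11 (edgeR adjusted p = 0.000377). Jun fell by 0.20 ± 0.05 (edgeR adjusted p = 0.00228), a change that did not pass without control replicate 3, CytoD replicate 1 or CytoD replicate 3, with total counts, or with windows within 20 kb.

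Tested directly against each other at 24 h, CK666 and CytoD differed at 6 AP-1 family windows, 4 higher and 2 lower with CK666, with 2.15% and 1.13% of all windows called. Past the adjusted p, whatever the fold, 10 were higher and 3 lower, against 4.82% and 2.26%. The Atf3 windows at -30.6, -25.6 and +1.7 kb were higher with CK666 by 2.57 ± 0.34, 2.01 ± 0.26 and 1.48 ± 0.33 (edgeR adjusted p = 5.35e-09, 2.51e-09 and 0.000579), and the first 2 were called in all 14 alternatives. Fosb -4.0 kb was higher by 1.74 ± 0.48 (edgeR adjusted p = 0.00734). Lower with CK666 were Jun -30.4 kb, with 43.0, 32.2 and 42.4 against 82.7, 110.5 and 85.9 (-1.25 ± 0.23, edgeR adjusted p = 2.95e-05), and Fos -26.5 kb, with 14.04, 20.9 and 26.6 against 42.0, 57.1 and 46.6 (-1.24 ± 0.31, edgeR adjusted p = 0.00284). The Fos call was lost in 4 of 14 alternatives, without CK666 replicate 1 or 2 or CytoD replicate 2 or 3. The Fos window at -37.4 kb did not pass this test (0.66, edgeR adjusted p = 0.225), nor did Jun +1.5 kb (0.31, edgeR adjusted p = 0.121).

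The promoters of Jund, the steadily made Jun protein, and of Atf3 were also higher with CK666 than with CytoD. Jund had 483.0 ± 40.6 against 351.6 ± 35.8 normalized counts (SD, n = 3), a difference of 0.46 ± 0.10 (edgeR adjusted p = 0.00036). The proximal Atf3 window had 647.2 ± 39.5 against 502.8 ± 21.9, a difference of 0.37 ± 0.09 (edgeR adjusted p = 0.0016). Among loci, Atf3, Batf and Jund were higher by 0.27, 0.43 and 0.31 and 0 were lower, with 17.3% and 4.64% of all genes. For the 0, edgeR had 1 at an unadjusted p under 0.05 and DESeq2 had 0. Jund did not pass in 5 of 15 alternatives, with scaling by total counts or without CK666 replicate 2 or 3 or CytoD replicate 1 or 3.

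**Figure D2:**
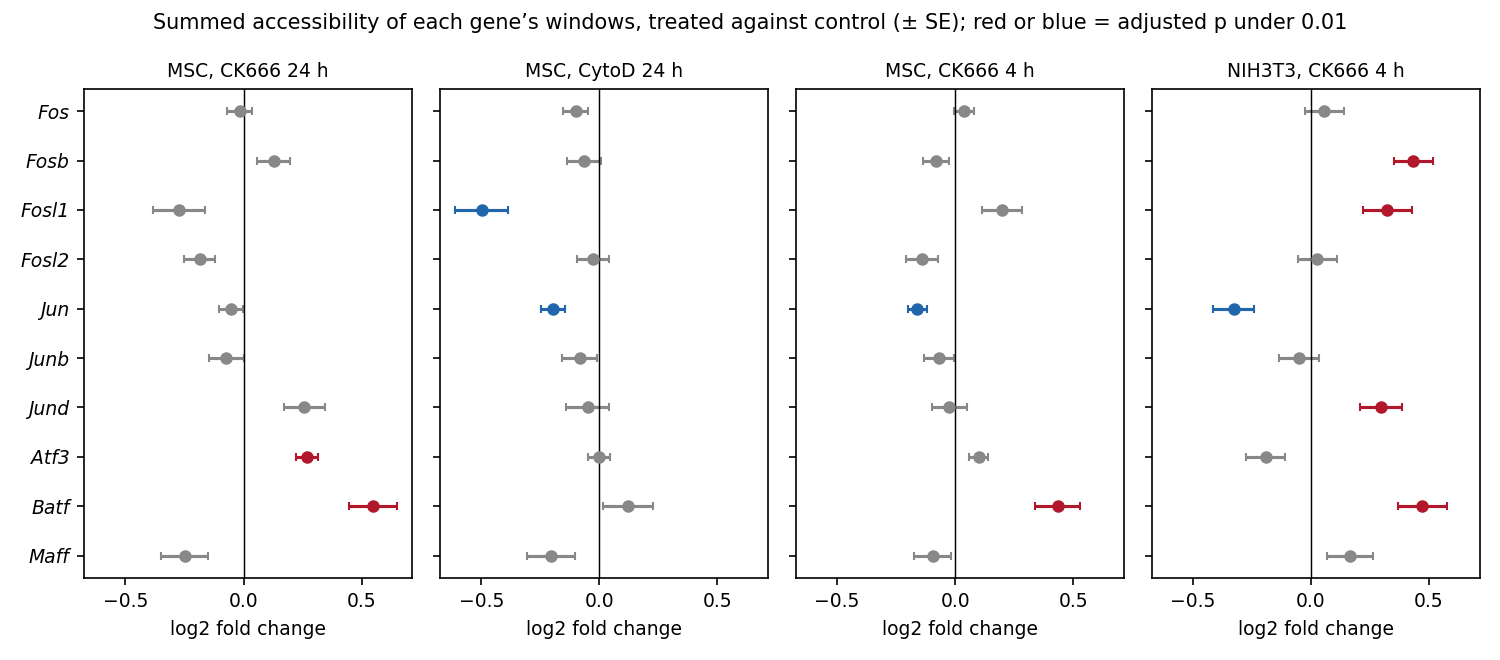
Log2 fold change of the summed counts of each gene's windows (x axis, ± SE) for the 10 genes (y axis) in the 4 comparisons with control. Colour marks an adjusted p under 0.01. Batf lies at 0.55, 0.43 and 0.47 in the 3 CK666 comparisons, each past the test, and Jun passes it below 0 in the 3 panels other than MSCs with CK666 at 24 h.

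After 4 h of CK666 the called windows in MSCs were all of Atf3. Of 156 windows tested 3 were called higher and 0 lower, with 0.589% and 0.428% of all windows called. For the 0, 2 windows were below an unadjusted p of 0.05 and past the fold limit, and DESeq2 called 0. Without the fold limit, 7 rose and 4 fell, against 1.95% and 2.16% of all windows. At -30.6 kb (chr1:191248354-191248885) the counts were 64.6, 44.2 and 77.5 with CK666 and 21.4, 6.31 and 26.8 in the controls. The groups were apart, by 1.77 ± 0.30 on the log2 scale (edgeR adjusted p = 9.54e-06), and the call held in all 12 alternatives. At -26.0 kb (chr1:191243757-191244308) they were 29.8, 33.6 and 33.5 against 12.8, 13.7 and 7.50 (1.5 ± 0.37, edgeR adjusted p = 0.00356), a call lost in 6 of 12 alternatives, among them DESeq2 and the fits without control replicate 1 or 3 or CK666 replicate 2 or 3.

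The gain with the smallest adjusted p was at Atf3 -21.8 kb (chr1:191239540-191240048), the window with the TRE printed above. It held 237.7, 229.8 and 190.5 normalized counts with CK666 against 87.7, 107.3 and 86.8, a change of 1.22 ± 0.14 (edgeR adjusted p = 3.45e-10). At 24 h the window there had a change of 0.21 that did not pass. Atf3 windows at -12.7 and -40.7 kb rose by 0.51 ± 0.07 and 0.69 ± 0.17 (edgeR adjusted p = 6.63e-08 and 0.00324). The Atf3 promoter window moved the other way, from 1363, 1326 and 1305 to 1269, 975.1 and 1069, a fall of 0.27 ± 0.06 (edgeR adjusted p = 0.00225).

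The Jun promoter fell too at 4 h in MSCs, from 1686, 1523 and 1643 to 1288, 1238 and 1165 normalized counts, by 0.39 ± 0.06 (edgeR adjusted p = 2.88e-07). Every CK666 library was below every control. Its coding exon window at +1.5 kb rose at the same time, from 139.1, 122.0 and 176.8 to 268.5, 248.4 and 251.8, by 0.81 ± 0.13 (edgeR adjusted p = 1.27e-06). Within 2 kb of the Jun TSS a promoter window thus fell while an exon window rose. Fosb -6.9 kb fell from 380.8, 377.7 and 342.9 to 248.6, 251.9 and 267.1, by 0.52 ± 0.10 (edgeR adjusted p = 9.5e-05). Jun +26.1 kb fell by 0.96 ± 0.25 (edgeR adjusted p = 0.00687). Batf +19.0 kb rose by 0.46 ± 0.11 (edgeR adjusted p = 0.00325), with 280.4, 282.0 and 279.5 against 211.8, 209.4 and 192.9. In this comparison the windows of Fosb, Batf and Jun outside the promoter, and those of Atf3 at -12.7, -21.8 and -40.7 kb, were chosen after their values were seen. Of the Fos windows 0 passed at 4 h in MSCs by edgeR or DESeq2, with 2 higher and 1 lower at an unadjusted p under 0.05, and values of 1.002 at -37.5 kb (edgeR adjusted p = 0.0305) and 0.44 at -5.0 kb (edgeR adjusted p = 0.302).

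Among loci at 4 h in MSCs, Batf rose from 423.6, 396.6 and 346.2 to 496.2, 561.3 and 516.9 normalized counts (0.43 ± 0.09, edgeR adjusted p = 0.00105) and Jun fell by 0.16 ± 0.04 (edgeR adjusted p = 0.00423), that is 1 up and 1 down of 10, against 3.98% and 4.7% of all genes. Without CK666 replicate 2 neither passed, and Jun did not pass in 6 of 13 alternatives, the others being DESeq2, the fit of all 12 libraries and the fits without control replicate 1 or 3 or CK666 replicate 3.

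**Figure D3:**
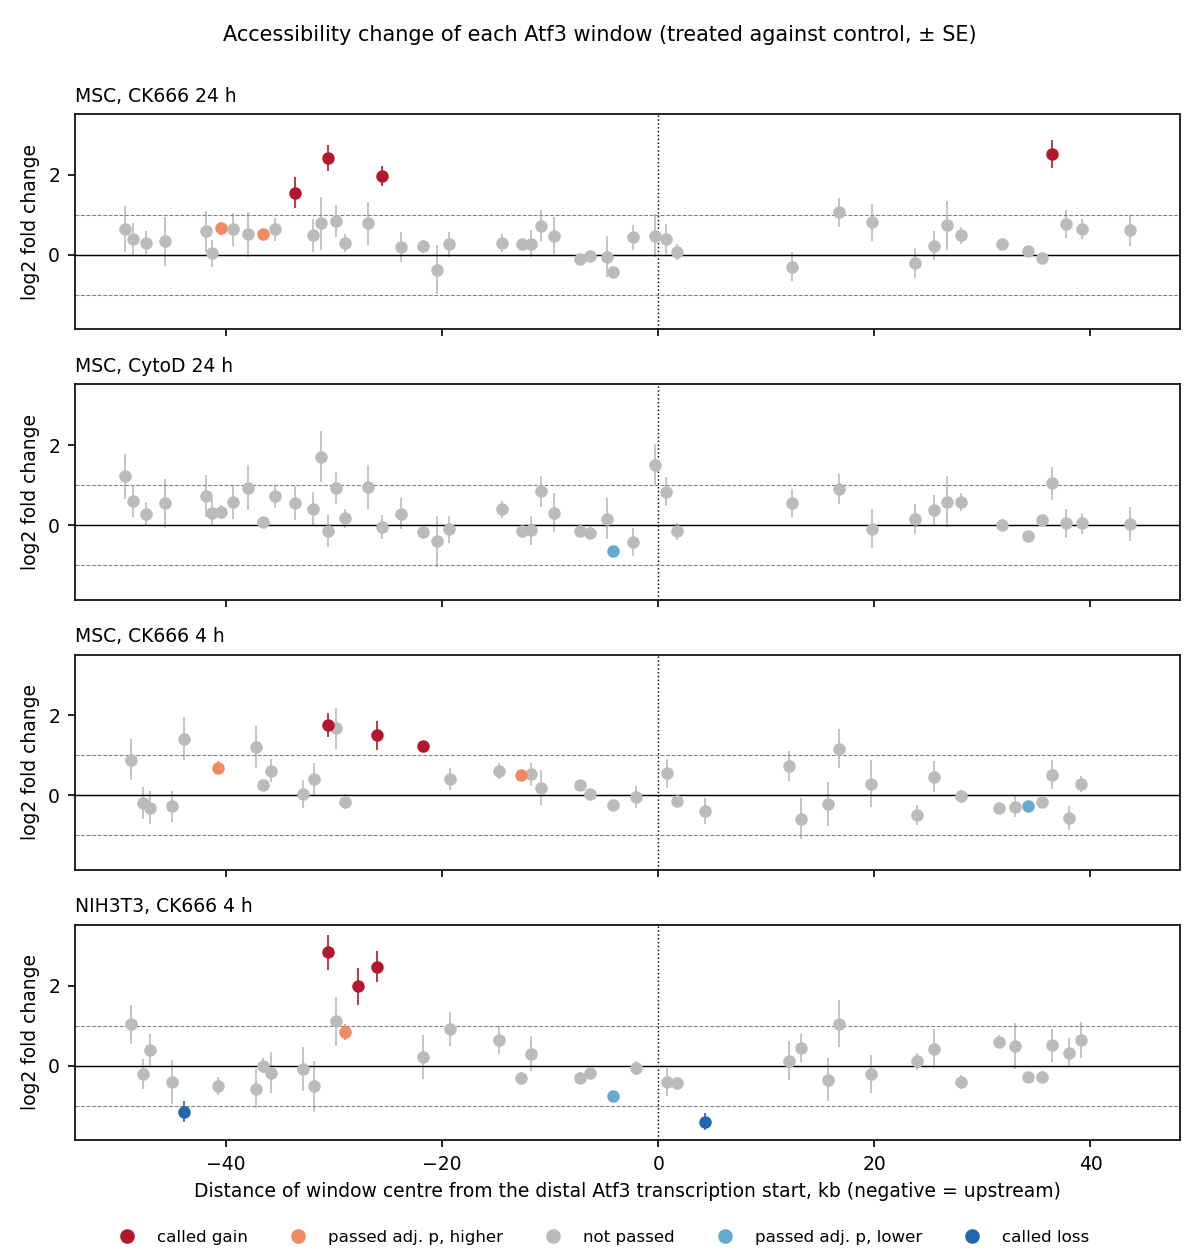
Log2 fold change against control (y axis, ± SE) of every tested Atf3 window by the distance of its centre from the distal TSS in kb (x axis, negative upstream), 1 panel per comparison. Dashed lines mark the fold limit, and colour marks windows that passed. Gains from -33.6 to -21.8 kb stand in the 3 CK666 panels. None of the 50 windows is a called gain under CytoD, where edgeR had 10 higher at an unadjusted p under 0.05.

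In NIH3T3 cells CK666 for 4 h raised some distal windows of Atf3, Fos and Batf and lowered others of Jun and Atf3. Of 177 windows tested 6 were called higher and 3 lower (2 of Atf3, 1 of Jun), with 1.88% and 1.67% of all windows called. By adjusted p alone 10 rose and 14 fell, against 2.51% and 4.34% of all windows. Of the 14 that fell 11 were of Jun and 3 of Atf3. At Atf3 -30.6 kb the treated libraries held 38.6, 44.7 and 28.7 normalized counts and the controls 5.07, 4.93 and 5.39. The 3 controls were close together and far below, a change of 2.83 ± 0.44 (edgeR adjusted p = 2.07e-06) called in all 12 alternatives. At -26.0 kb the values were 32.6, 61.3 and 58.3 against 19.2, 4.11 and 5.39 (2.47 ± 0.38, edgeR adjusted p = 1.5e-06), and at -27.8 kb 22.2, 28.1 and 28.7 against 8.10, 7.39 and 4.495 (1.98 ± 0.47, edgeR adjusted p = 0.00214), the latter chosen after its values were seen.

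Further from these, 2 Atf3 windows were called lower in NIH3T3 cells. The intronic one 4.4 kb downstream of the distal TSS (chr1:191213401-191213943) went from 89.2, 107.6 and 122.3 to 38.6, 43.7 and 38.2, a fall of 1.4 ± 0.21 (edgeR adjusted p = 1.2e-06). The one at -43.9 kb (chr1:191261515-191262291) went from 61.8, 72.2 and 62.0 to 34.1, 31.2 and 23.9, a fall of 1.16 ± 0.26 (edgeR adjusted p = 0.000873), not called without control replicate 2 or CK666 replicate 3. The promoter window of Atf3 had 522.8 ± 40.1 against 636.2 ± 22 and did not pass (-0.28, edgeR adjusted p = 0.128).

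The 2 Fos windows called higher in MSCs at 24 h were also called in NIH3T3 cells. At -37.5 kb (chr12:85436115-85436702) the counts were 108.3, 68.6 and 83.2 with CK666 against 41.5, 42.7 and 39.6 (1.05 ± 0.23, edgeR adjusted p = 0.000522), not called without control replicate 3 or CK666 replicate 1. At -5.0 kb (chr12:85468570-85469185) they were 16.3, 20.8 and 24.9 against 3.04, 4.11 and 2.70, a low level in each control, and the change was 2.61 ± 0.59 (edgeR adjusted p = 0.00112). Batf +14.3 kb, in an intron, held 44.5, 32.2 and 25.8 against 6.08, 18.9 and 8.99 (1.53 ± 0.40, edgeR adjusted p = 0.00544), a call lost in 5 of 12 alternatives, under DESeq2 and without control replicate 1 or 3 or CK666 replicate 1 or 2. Of 2 windows over a Fosb TSS, the one centred at +1.0 kb rose from 686.9, 589.5 and 652.7 to 904.8, 989.6 and 834.3, by 0.50 ± 0.12 (edgeR adjusted p = 0.00263). The other, at -0.2 kb, changed by 0.29 and did not pass. Batf +19.0 kb also rose, by 0.55 ± 0.15 (edgeR adjusted p = 0.00706), but here 1 treated library with 200.2 lay under the control with 210.7, so the groups overlapped. This window was chosen after its values were seen.

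Of the Jun windows in NIH3T3 cells, 11 of 41 fell and 0 rose by adjusted p, against 4.34% and 2.51% of all windows. DESeq2 gave 9 and 0, and at an unadjusted p under 0.05 edgeR had 17 lower and 2 higher. The called one, at +4.7 kb in an intron of a non-coding gene (chr4:95047308-95047827), went from 51.7, 62.4 and 55.7 to 7.42, 8.32 and 10.5 normalized counts, a fall of 2.65 ± 0.34 (edgeR adjusted p = 1.83e-08). All 3 treated libraries were far below the controls. The other 10 fell by 0.48 to 0.87 and reached from -46.1 to +26.1 kb. Untreated NIH3T3 cells had 22 of the 41 windows called higher than in MSCs. Whether their read counts raised the number that passed was not tested. The promoter window had 1863 ± 188 against 1919 ± 287 and did not pass (-0.04, edgeR adjusted p = 0.866), nor did the exon window at +1.5 kb, with 84.5, 137.2 and 95.6 against 132.7, 106.7 and 132.2 (-0.21, edgeR adjusted p = 0.485).

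**Figure D4:**
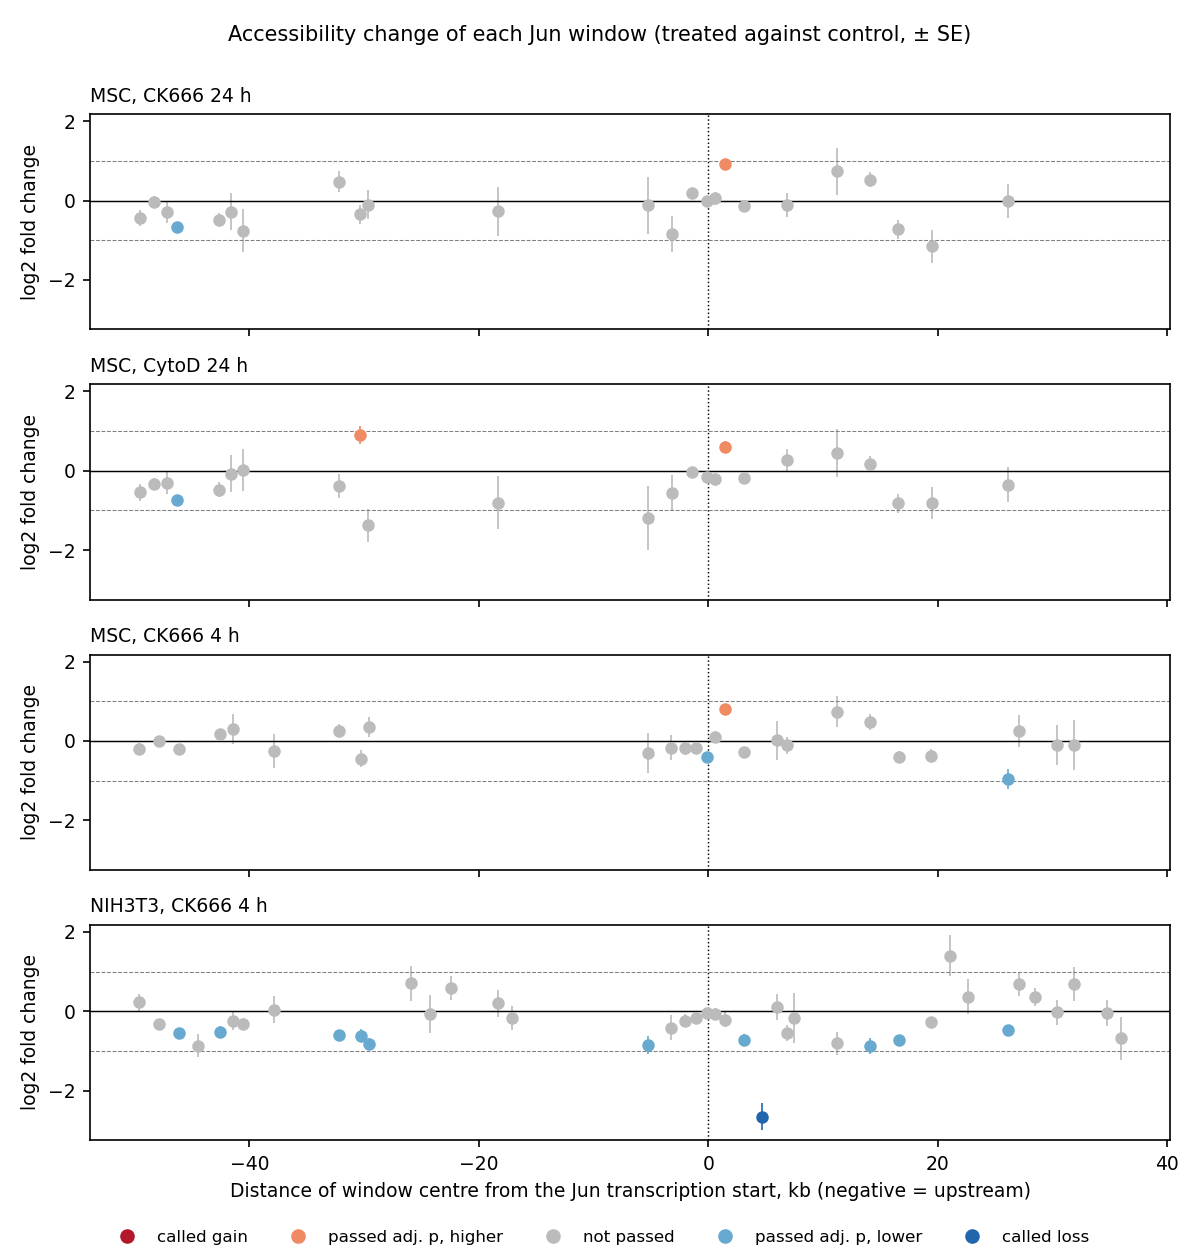
Log2 fold change against control (y axis, ± SE) of every tested Jun window by distance from the Jun TSS in kb (x axis, negative upstream), 1 panel per comparison. The window at +1.5 kb passes in the 3 MSC panels and not in NIH3T3 cells, where 11 windows lie lower, 1 of them at -2.65.

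Of the loci in NIH3T3 cells 4 rose and 1 fell, where 11.6% of all genes rose and 13.6% fell. Batf rose by 0.47 ± 0.10, Fosb by 0.43 ± 0.08, Fosl1 by 0.32 ± 0.10 and Jund by 0.30 ± 0.09 (edgeR adjusted p = 0.000125, 1.03e-05, 0.00831 and 0.00544). Fosb, for example, went from 1961, 1794 and 1755 to 2340, 2752 and 2344 normalized counts, with the groups apart. Jun fell by 0.33 ± 0.09 (edgeR adjusted p = 0.00126). Fosl1 did not pass in 10 of 13 alternatives, among them DESeq2, RLE size factors and the fits without any 1 library, nor Jund in 6, among them DESeq2 and the fits without any 1 control or CK666 replicate 2. Jun did not pass in 5, among them windows within 20 kb and the fits without control replicate 1, control replicate 3 or CK666 replicate 3. The count of 5 was 2 or 3 when any 1 of the controls or CK666 replicate 3 was left out.

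Called gains were shared between CK666 comparisons that have no library in common. Of the 7 gains at 24 h in MSCs 4 overlapped a gain in NIH3T3 cells (57.1% of the 7 and 66.7% of the 6), namely Atf3 -30.6 and -25.6 kb and Fos -37.4 and -5.0 kb. With MSCs at 4 h 2 were shared (28.6% of the 7 and 66.7% of the 3), the same Atf3 pair, which was also shared between the cell types at 4 h (66.7% of the 3 and 33.3% of the 6). Of all gains of the genome, by the same overlap, 15.8% of the 5659 at 24 h met a gain in NIH3T3 cells and 14.4% of the 6226 there the reverse. For MSCs at 4 h these were 16.1% of the 5659 and 50% of the 1807, and between the cell types at 4 h 22% of the 1807 and 6.39% of the 6226. The counts of the AP-1 genes are small, and no test compared their shares with these. Of the shared windows, Fos -5.0 kb was no longer called in 7 of 15 alternatives at 24 h and had low control counts in NIH3T3 cells. Window borders differ between the tables, and no test compared 24 h with 4 h.

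Whether CK666 acted differently in the 2 cell types at 4 h was tested with an interaction term over all 12 libraries, given as the NIH3T3 effect minus the MSC effect. Of 186 windows 1 was called higher and 5 lower, with 0.498% and 0.903% of all windows called. Without the fold limit, 2 were higher and 7 lower, against 0.62% and 1.44%. The Atf3 gains at -30.6 and -26.0 kb did not pass (1.04 and 0.95, edgeR adjusted p = 0.323 and 0.396), so a difference between the cell types in their response was not shown there. Jun +1.5 kb differed by -1.05 ± 0.23 (edgeR adjusted p = 0.00184), a window chosen after its values were seen, where the untreated means were 131.8 normalized counts in NIH3T3 cells and 138.3 in MSCs. Jun +14.1 and -29.6 kb differed by -1.37 ± 0.30 and -1.21 ± 0.28 (edgeR adjusted p = 0.00145 and 0.00331), and Atf3 -43.9 and -40.7 kb by -2.59 ± 0.53 and -1.23 ± 0.30 (edgeR adjusted p = 0.000681 and 0.00564). At Atf3 -43.9 kb untreated NIH3T3 cells were higher than untreated MSCs by 3.58 on the log2 scale (edgeR adjusted p = 1.04e-13). Fos -5.0 kb was the 1 called higher, 2.16 ± 0.54 (edgeR adjusted p = 0.00805), and 13 of 17 alternatives did not call it.

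The response of Fosb -6.9 kb differed between the cell types. In NIH3T3 cells it held 298.1, 398.1 and 322.1 normalized counts with CK666 against 243.1, 245.5 and 245.4, a change of 0.48 that did not pass (edgeR adjusted p = 0.0126), while in MSCs it fell by 0.52. The interaction was 0.97 ± 0.18 (edgeR adjusted p = 0.000102), in a window chosen after its values were seen. The Fosb locus as a whole differed by 0.49 (edgeR adjusted p = 0.000285), the 1 locus of 10 that was higher, with 3.71% of all genes higher and 8.8% lower. None of the 10 was lower, where edgeR had 1 at an unadjusted p under 0.05 and DESeq2 had 1.

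More windows were called between the untreated cell types than in any comparison of treatments. At 4 h 35 of 186 windows were called higher and 19 lower in NIH3T3 cells than in MSCs, with 16.2% and 18.3% of all windows called. On the adjusted p alone, 46 were higher and 37 lower, against 18.5% and 22.9%. Cell type, source and culture history cannot be told apart in this comparison. With scaling by total counts the split was 40 to 15. Jun held 22 of the 35 that were higher and 0 of the 19 that were lower, with a median over its 41 windows of 1.45 against 0.02 over all windows. The greatest was at -40.6 kb (chr4:95092537-95093061), with 230.2, 224.9 and 213.6 normalized counts in NIH3T3 cells against 9.14, 3.00 and 12.1 in MSCs (4.76 ± 0.26, edgeR adjusted p = 6.28e-29). At +26.1 kb 1056, 830.0 and 933.1 stood against 71.1, 45.1 and 72.8 (3.90 ± 0.15, edgeR adjusted p = 5.16e-38). The Jun promoter was higher by 0.41 ± 0.10 (edgeR adjusted p = 0.000188).

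Other members differed at single windows in both directions. Fosl2 -2.3 kb (chr5:32132917-32134020) held 302.6, 305.6 and 317.1 normalized counts in NIH3T3 cells and 8.12, 17.0 and 4.05 in MSCs, the widest gap of all 186 windows (4.97 ± 0.23, edgeR adjusted p = 1.45e-32). Lower in NIH3T3 cells were Fos -5.0 kb by 3.52 ± 0.41, Atf3 -21.8 kb by 3.02 ± 0.27, Fos -30.3 kb by 3.00 ± 0.32 and Fosl1 -10.6 kb by 2.56 ± 0.35 on the log2 scale (edgeR adjusted p = 8.09e-12, 8.47e-17, 2.51e-13 and 1.27e-09). At Atf3 -21.8 kb, the window with the largest 4 h response of MSCs by adjusted p, NIH3T3 cells held 11.9, 8.68 and 12.5 against 83.3, 102.1 and 81.9, and CK666 changed it there by 0.21, which did not pass. Maff, a small Maf protein, had a median of -1.16 over its 8 windows. Loci that were lower in NIH3T3 cells were Maff (-0.69), Fosl1 (-0.63), Atf3 (-0.56), Jund (-0.36) and Fos (-0.34), and Jun was higher by 1.03 ± 0.07, that is 1 up and 5 down with 20.1% and 45.2% of all genes.

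**Figure D5:**
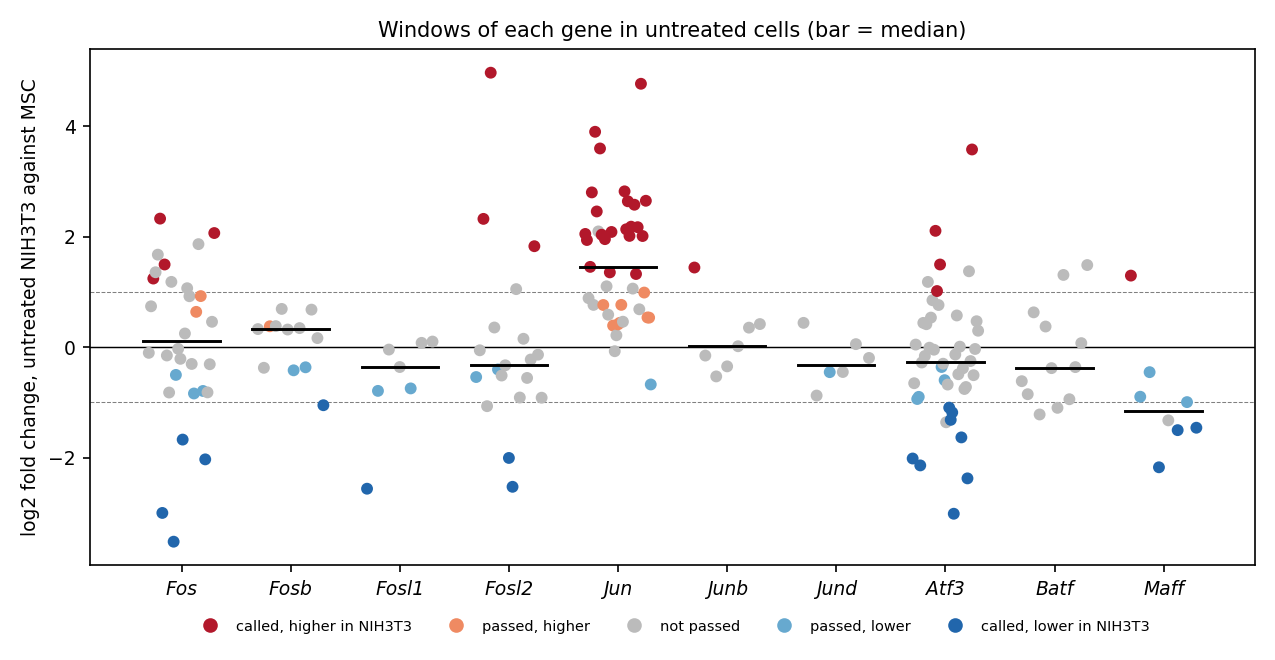
Log2 fold change of untreated NIH3T3 cells against untreated MSCs at 4 h (y axis) for each window of the 10 genes (x axis), with bars at the medians and dashed lines at the fold limit. Jun is set off upward with a median of 1.45 and Maff downward with a median of -1.16.

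Genes around AP-1 were followed by the sums of their windows, and their counts stand beside the shares of all genes that passed. Of 14 AP-1 target genes 1 fell with CK666 at 24 h, Timp1, a protease inhibitor, by 0.67 ± 0.07 on the log2 scale (edgeR adjusted p = 5.11e-12), and 0 rose, also at an unadjusted p under 0.05 and by DESeq2, where 5.24% of all genes fell and 7.17% rose. With CytoD 4 fell, Timp1 by 0.65, the hyaluronan receptor Cd44 by 0.46, the cytokine Il6 by 0.39 and the urokinase receptor Plaur by 0.36 (edgeR adjusted p = 3.63e-11, 6.57e-12, 0.00489 and 0.000106), against 12.6% of all genes. Again 0 rose, with 0 at an unadjusted p under 0.05 and 0 by DESeq2, against 4.56%. In MSCs at 4 h the gelatinase Mmp9 rose by 0.45 and the stress enzyme Hmox1 by 0.32 (edgeR adjusted p = 0.000441 and 8.25e-07), and Timp1 fell by 0.28 and Cd44 by 0.17 (edgeR adjusted p = 0.00015 and 0.000851), 2 up and 2 down against 3.98% and 4.7% of all genes. In NIH3T3 cells the growth factor Vegfa rose by 0.39 (edgeR adjusted p = 0.000117), and the collagenase Mmp13 fell by 0.80 and the matrix protein Spp1 by 0.28 (edgeR adjusted p = 1.26e-12 and 0.00412), 1 up and 2 down against 11.6% and 13.6%.

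Of all genes, 7.17% rose and 5.24% fell with CK666 at 24 h, and 4.56% rose and 12.6% fell with CytoD. In MSCs at 4 h 3.98% rose and 4.7% fell, and in NIH3T3 cells 11.6% and 13.6%. No test compared the lists below with these shares. Of 8 other bZIP partners with windows, Atf2, which binds the CRE, rose by 0.21 with CK666 at 24 h (edgeR adjusted p = 0.00468). Atf7 and the small Maf protein Mafk fell by 0.31 and 0.25 with CytoD (edgeR adjusted p = 0.003 and 0.00257). In MSCs at 4 h 0 passed by edgeR or DESeq2, with 2 higher and 1 lower at an unadjusted p under 0.05. In NIH3T3 cells Batf2 rose by 1.32 ± 0.28 and Maf fell by 0.46 (edgeR adjusted p = 6.5e-05 and 2.54e-06). Of 14 upstream kinases and serum response factors 0 passed with CK666 at 24 h by either tool, with 2 higher and 2 lower at an unadjusted p under 0.05. With CytoD 2 fell by edgeR and by DESeq2, of which the MAP kinase Mapk9 fell by 0.28 (edgeR adjusted p = 0.00176). The kinase Map3k1 rose by 0.17 in MSCs at 4 h (edgeR adjusted p = 0.00903), where DESeq2 passed 0 of the list, and it fell by 0.52 in NIH3T3 cells (edgeR adjusted p = 6.75e-07), a difference of -0.72 ± 0.11 (edgeR adjusted p of the interaction = 4.76e-07). Map2k1 rose by 1.21 and Map2k4 fell by 0.25 in NIH3T3 cells (edgeR adjusted p = 7.11e-09 and 0.00946). Median locus changes of the 3 lists lay between -0.18 and 0.03 in the 4 comparisons with control, and those of all genes between -0.05 and 0.04.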

How the data were processed

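ATAC-seq had been run by the Omni-ATAC protocol on 50000 cells per library. According to the study's methods, reads were processed with PEPATAC, aligned with bowtie2 and peaks were called with MACS2, and the peaks of all replicates were merged into consensus windows. Versions of these tools were not given in the sources used here. The build, mm10, comes from the submitters' processing notes. The authors deposited raw read counts per window, with separate tables for 24 h and 4 h whose windows have different borders, so tests were made within a table only. Of 30 libraries 21 were used, in 7 groups of 3, and 9 libraries of siRNA-treated cells were left out.

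Each window was assigned to the nearest protein-coding TSS within 50 kb (GENCODE vM21). The 10 genes and the gene lists were chosen with earlier results of these data known. Of the listed genes, Mafg and Ly6a have no assigned window. Some listed genes are not reported here. Windows with low counts were removed by filterByExpr, libraries were scaled by TMM, and edgeR 4.0.16 (R 4.3.3, data.table version 1.17.8) fitted a quasi-likelihood model per table and, at 4 h, per cell type, with Benjamini-Hochberg adjustment over all windows, or over all genes for the sums of a gene's windows. All tests were 2-sided. Windows needed an adjusted p below 0.01 to pass, and to be called also a change of more than 1 on the log2 scale. TMM assumes that most windows are level between libraries, so a general gain or loss of accessibility would not be seen. The 3 libraries of a group limit the precision, and totals of counts are given with the groups.

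Windows named in the text were those over a TSS and, per gene and comparison, up to 2 gains and 2 losses that averaged 20 normalized counts or more and whose groups did not overlap; others are marked where they appear. Motifs were searched in the central 500 bases of each window. Alternatives were DESeq2 1.42.0, other scalings, no filter, windows within 20 kb, gene 5' ends as TSSs, a replicate block, fits on fewer or more libraries and leaving out each library. The models were tested on simulated data first. Tables were handled with Python 3.11.15, pandas 2.3.3, numpy 2.4.6 and pysam 0.24.0.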

Additional observations from a re-analysis of the deposited data

Results flagged for a closer look

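These values of the CK666 effect at 4 h, given as the log2 change in NIH3T3 cells minus that in MSCs, stood out because the interaction term passed its test. Atf3 differed at -43.9 kb by -2.59 (edgeR adjusted p = 0.000681) and at -40.7 kb by -1.23 (edgeR adjusted p = 0.00564), which means a lower response in NIH3T3 cells. Untreated NIH3T3 cells were higher than untreated MSCs at -43.9 kb by 3.58 (edgeR adjusted p = 1.04e-13), so the MSC response there was measured from a far lower level. Jun differed in the same direction at +14.1 kb by -1.37 (edgeR adjusted p = 0.00145), at -29.6 kb by -1.21 (edgeR adjusted p = 0.00331) and over its coding exon at +1.5 kb by -1.05 (edgeR adjusted p = 0.00184). Fos -5.0 kb had a higher response in NIH3T3 cells by 2.16 (edgeR adjusted p = 0.00805), from control counts of 3.04, 4.11 and 2.70 in that line, and was not called in 13 of 17 alternatives. The summed windows of Fosb had a higher response in NIH3T3 cells by 0.49 (edgeR adjusted p = 0.000285). Among the others, Atf3 -40.7 kb was not called in 9 of 17 alternatives, Jun -29.6 kb in 3 (without MSC control replicate 2 or MSC CK666 replicate 1 or 3) and Jun +14.1 kb in 1 (without MSC control replicate 2), while Atf3 -43.9 kb was called in all 17 and the Fosb sum passed in all 18. No alternatives were run for Jun +1.5 kb alone.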

How the results depend on the processing

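AP-1 family windows called were 7 with CK666 and 2 with CytoD at 24 h, 6 between the drugs, 3 with CK666 in MSCs and 9 in NIH3T3 cells at 4 h, 6 for the interaction and 54 between untreated cell types. With windows within 20 kb of the TSS they were 3, 1, 2, 0, 4, 3 and 28, as fewer windows are counted. The 2 of CytoD were 1 under DESeq2, RLE size factors, total counts, no filter, a replicate block and a fit of only the 2 groups compared. Genes whose summed windows passed were 2, 2, 3, 2, 5, 1 and 6 in the same order. Within 20 kb the first 2 of these were 1 each, and with total counts CytoD had 1. CK666 in MSCs at 4 h had 1 under DESeq2 and 1 with all 12 libraries fitted together, NIH3T3 cells had 3 under DESeq2, and the interaction had 2 with gene 5' ends, DESeq2 or total counts. The Fosb locus changed sign between untreated cell types, from -0.04 to 0.19 with total counts. The cause of these shifts was not tested.

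Leaving out 1 library gave 4 to 7 windows and 2 to 3 loci for CK666 at 24 h, 0 to 2 and 1 to 3 for CytoD, 4 to 7 and 2 to 4 between the drugs, 2 to 4 and 0 to 2 in MSCs at 4 h, 5 to 9 and 2 to 4 in NIH3T3 cells, 2 to 7 and 1 to 3 for the interaction, and 46 to 58 and 6 to 6 between cell types. For CK666 at 24 h the count was 4 without control replicate 1, control replicate 3 or CK666 replicate 1. For CytoD it was 0 without CytoD replicate 3 and 1 without any other library but control replicate 2, and its loci were 1 without control replicate 3 or CytoD replicate 1 or 3. In MSCs at 4 h the loci were 0 without CK666 replicate 2 and 1 without control replicate 1 or CK666 replicate 3. In NIH3T3 cells the windows were 5 without control replicate 3, and the loci were 2 without control replicate 1 or 3 and 3 without control replicate 2 or CK666 replicate 3. For the interaction the windows were 2 without MSC control replicate 2 and 3 without MSC CK666 replicate 1, NIH3T3 control replicate 1 or NIH3T3 CK666 replicate 3, and the loci were 2 without MSC CK666 replicate 3 or NIH3T3 control replicate 2 and 3 without NIH3T3 CK666 replicate 2.

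Deviations of libraries that carry the same replicate number correlated between -0.06 and 0.03 over windows, and those with different numbers between -0.05 and 0.05. No pairing was seen, but counting noise in such deviations can hide one, so whether the numbers pair the samples remains unknown. With the replicate block the windows called were 7, 1, 6, 3, 9, 5 and 41, and the loci 2, 2, 3, 2, 2, 1 and 6. Of 2665 values of named windows and loci under an alternative, 101 lost their call, 18 gained one, and 98 changed sign, of which the Fosb locus above was the 1 that passed in the new direction. Many of the 2665 belong to windows and loci not called in the main fit, which could not lose a call. Windows with control counts below about 20 are limited by depth.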
